A study of Mus musculus with 24 samples.

Results

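Livers of Ercc1 mutant males fed ad libitum were compared at 16 weeks and at 7 weeks of age by ribosome profiling, which sequences the stretches of mRNA that translating ribosomes cover. All 4 libraries of each age, 8 of the 24 in the series, were chosen by their titles, which give the mutant genotype, ad libitum feeding and the age. The genotype Ercc1 d/- joins 1 truncated and 1 null allele. All mice were individually housed male F1 hybrids of C57BL6J and FVBN on AIN93G pellets, and on the day of collection none received food beforehand. The other 16 libraries, 4 each of mutants on 30% dietary restriction at 16 weeks (DR), wild types (Ercc1 +/+) fed ad libitum at 16 weeks, wild types on that restriction at 16 weeks and wild types fed ad libitum at 104 weeks, entered the estimate of the spread. No wild-type liver of 7 weeks is among the libraries, so growth to adulthood and the course of the mutant phenotype cannot be told apart in this interval. A change in footprints can be a change in mRNA amount or in its translation, which were not separated here.

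ERCC1 is the partner of the nuclease XPF, and the pair cuts DNA beside bulky lesions and crosslinks in nucleotide excision and interstrand crosslink repair. Mice that lack most of this activity grow poorly and develop features of old age early, with the liver among the organs most affected. In the postnatal liver, male-pulsed growth hormone sets the sex-biased enzymes and urinary proteins, while retinoic acid, sterol supply, cytokines and the daily clock each drive well known sets of genes.

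The upstream sequences of 2 genes that rose are shown. The first is the window around the start of Cyp26a1, the rise with the smallest adjusted p. The window runs from 250 bases before to 50 after a RefSeq start (GRCm38.p6, chr19:37697558-37697857, plus strand), and the capitals mark a direct repeat of AGTTCA or AGGTCA with 5 bases between them, the form of a retinoic acid response element. The second is the window of Tmem176a (chr6:48841233-48841532, plus strand), shown since it and Tmem176b both rose and lie over each other. Its capitals mark the 208 bases shared with a window of Tmem176b on the other strand, the one that overlaps it most.
Cyp26a1: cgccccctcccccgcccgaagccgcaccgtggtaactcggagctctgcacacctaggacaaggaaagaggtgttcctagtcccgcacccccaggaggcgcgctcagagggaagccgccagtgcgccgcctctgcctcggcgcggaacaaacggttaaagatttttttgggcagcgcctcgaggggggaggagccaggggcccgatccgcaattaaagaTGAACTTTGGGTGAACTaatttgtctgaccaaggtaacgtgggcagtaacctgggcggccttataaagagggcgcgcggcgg
Tmem176a: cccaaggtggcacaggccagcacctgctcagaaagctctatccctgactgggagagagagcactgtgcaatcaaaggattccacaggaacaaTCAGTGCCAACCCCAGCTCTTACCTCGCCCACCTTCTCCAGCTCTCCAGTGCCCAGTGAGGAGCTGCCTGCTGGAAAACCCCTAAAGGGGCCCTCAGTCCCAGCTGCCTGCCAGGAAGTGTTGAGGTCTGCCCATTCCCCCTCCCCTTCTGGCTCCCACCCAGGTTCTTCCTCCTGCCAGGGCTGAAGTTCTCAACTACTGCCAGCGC

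The Cyp26a1 repeat reads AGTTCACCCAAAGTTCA on the minus strand and lies 32 to 16 bases before the start that sets this window. The RefSeq gene record of Cyp26a1 begins further upstream, at base 37697738, and holds the repeat. The search took all 4 orders of these hexamers, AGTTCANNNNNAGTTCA, AGTTCANNNNNAGGTCA, AGGTCANNNNNAGTTCA and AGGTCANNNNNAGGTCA, on both strands. Of 32851 RefSeq windows of 300 bases, 13 held a match (0.0396%), and 1 of those is the window of a neighbouring gene model, Gm32342, over the same bases. Cyp26a1 was the one match among the 38 changed genes that have a window, and the one match among the 21 retinoid genes that have one. Blvrb and Gm4631 were the other tested genes with a match, at log2 changes of -0.15 and -1.08 and adjusted p = 0.807 and 0.599. A match describes letters and is no evidence of binding.

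The 8 libraries held 16548918 to 21859015 counts at 16 weeks and 15247924 to 20958683 at 7 weeks, and the 24 held 13366558 to 27084259. Ercc1 itself had 1 to 15 counts in the 12 mutant libraries, against 34 to 110 in the 12 wild-type libraries, and did not differ by age (log2 change 0.42 ± 0.49, adjusted p = 0.864). The albumin gene took 8.89 ± 0.70% of the counts at 16 weeks and 8.43 ± 1.04% at 7 weeks (SD, n = 4 each). Ribosomal protein genes split the libraries across age: they summed to 5000, 3930, 10200 and 7430 CPM (counts scaled to effective library size by edgeR's cpm) in 16-week libraries 1 to 4, against 3660, 9460, 3620 and 7120 CPM in 7-week libraries 1 to 4. None of the 80 tested changed. With their log2 sum as a covariate, an alternative chosen after seeing the data, 50 genes passed in place of 53. Of the 50, 47 were among the 53. The titles number the libraries of an age 1 to 4 without saying that each is a separate mouse, so p-values measure the spread between these samples, which may be technical.

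Of 12211 genes tested, 53 changed between the ages (0.434%), 30 higher at 16 weeks (0.246%) and 23 lower (0.188%). The test was edgeR's quasi-likelihood F test on counts of all 24 libraries, with Benjamini-Hochberg adjustment over all genes tested and a threshold of 0.05. At an unadjusted p under 0.05 there were 1168 genes (9.57%). Changes of more than 2-fold made up 17 of the rises and 10 of the falls. The ranges of the 2 ages did not overlap in 51 of the 53, and the exceptions were Cd5l and Ighg1. Over all genes tested, every 16-week library stood above every 7-week library in 608 (4.98%) and below in 695 (5.69%). The spread within the 2 ages, a biological coefficient of variation of 20.3% at 16 weeks and 15.7% at 7 weeks, was below the 24.2% over all 24 libraries. A fit of the 8 libraries alone passed 436 of 11467 genes (3.80%), 194 higher (1.69%) and 242 lower (2.11%), and held 51 of the 53 in the same direction. Igdcc4 and Ighg1 had too few counts to be tested there. Changed, rose and fell refer below to the fit of 24 libraries, and passes in the fit of 8 are named as such.

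**Figure D1:**
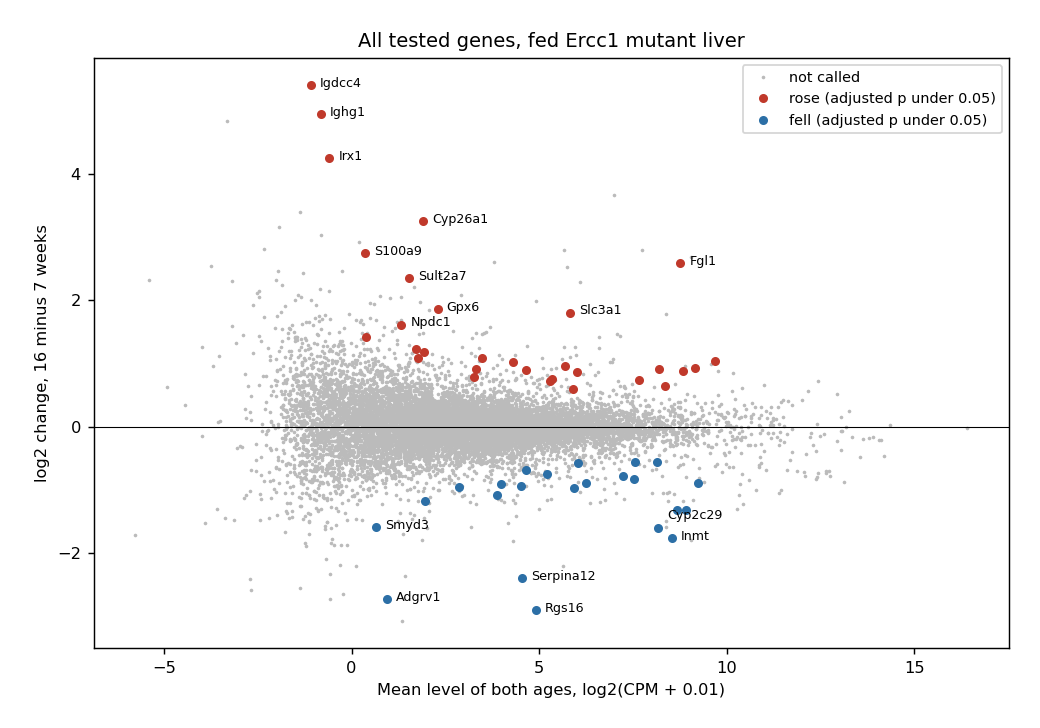
Log2 change, 16 minus 7 weeks (vertical), against the mean level of both ages as log2(CPM + 0.01) (horizontal) for the 12211 genes tested. Red points are the 30 rises, blue points the 23 falls, grey points genes that did not pass, and genes changed by more than 1.5 on the log2 scale are named.

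Cyp26a1, the hydroxylase that clears retinoic acid and is itself switched on by it, had the smallest adjusted p of all genes tested and rose. It was at 3.93, 9.54, 9.08 and 4.47 CPM in the 16-week livers, against 0.752, 0.648, 0.265 and 1.14 CPM in the 7-week livers. Every 16-week liver was at least 3.93 CPM and every 7-week liver at most 1.14 CPM (log2 change 3.26 ± 0.37, adjusted p = 5.54e-05). The call held in all 8 fits that left out 1 library, with adjusted p of at most 0.000547. Its relative Cyp26b1 was at 8.06, 19.8, 18.4 and 10.4 CPM in the 16-week livers, against 11.8, 1.82, 8.80 and 4.88 CPM in the 7-week livers, overlapping ranges that did not pass (log2 change 1.05 ± 0.75, adjusted p = 0.734). Of 25 tested genes of retinoid handling 1 rose and 0 fell, with a median log2 change of 0.12 beside 0.01 over all genes tested. Among the members that did not pass were Ttr, the plasma carrier of retinol-binding protein (log2 change -0.42, adjusted p = 0.177), and Rarb, a retinoic acid receptor (log2 change 1.22, adjusted p = 0.434). Rarb was at 0.951, 1.53, 0.930 and 1.29 CPM in the 16-week livers, against 0.652, 0.412, 0.198 and 0.736 CPM in the 7-week livers, so its ranges did not overlap although it did not pass.

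Gpx6, a glutathione peroxidase best known from the olfactory epithelium, rose as well. Its level was 4.95, 10.1, 10.6 and 5.09 CPM in the 16-week livers, against 2.16, 1.88, 1.85 and 2.54 CPM in the 7-week livers (log2 change 1.86 ± 0.29, adjusted p = 0.00166). Livers 2 and 3 of 16 weeks were the highest, and all 4 were above the 7-week range. Among the 6 tested glutathione peroxidases Gpx6 alone passed. Gpx1, the abundant cytosolic form, was at 1040 ± 126 CPM at 16 weeks and 1200 ± 156 CPM at 7 weeks (SD, n = 4 each), and the phospholipid peroxidase Gpx4 at 178 ± 16.7 CPM at 16 weeks and 164 ± 24 CPM at 7 weeks (SD, n = 4 each). Gpx3, Gpx7 and Gpx8 had log2 changes of 0.70, -1.17 and 0.07 with adjusted p = 0.589, 0.511 and 0.989. Mgst3, a membrane-bound glutathione transferase and peroxidase, rose (log2 change 0.91 ± 0.19, adjusted p = 0.0239), at 13.3, 17.0, 12.4 and 9.47 CPM in the 16-week livers, against 7.42, 6.00, 6.28 and 8.03 CPM in the 7-week livers. Mgst3 passed in 3 of the 8 fits that left out 1 library. Of 30 tested NRF2 targets none passed. Their median log2 change was 0.18, and 3 passed upward in the fit of 8 libraries.

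**Figure D2:**
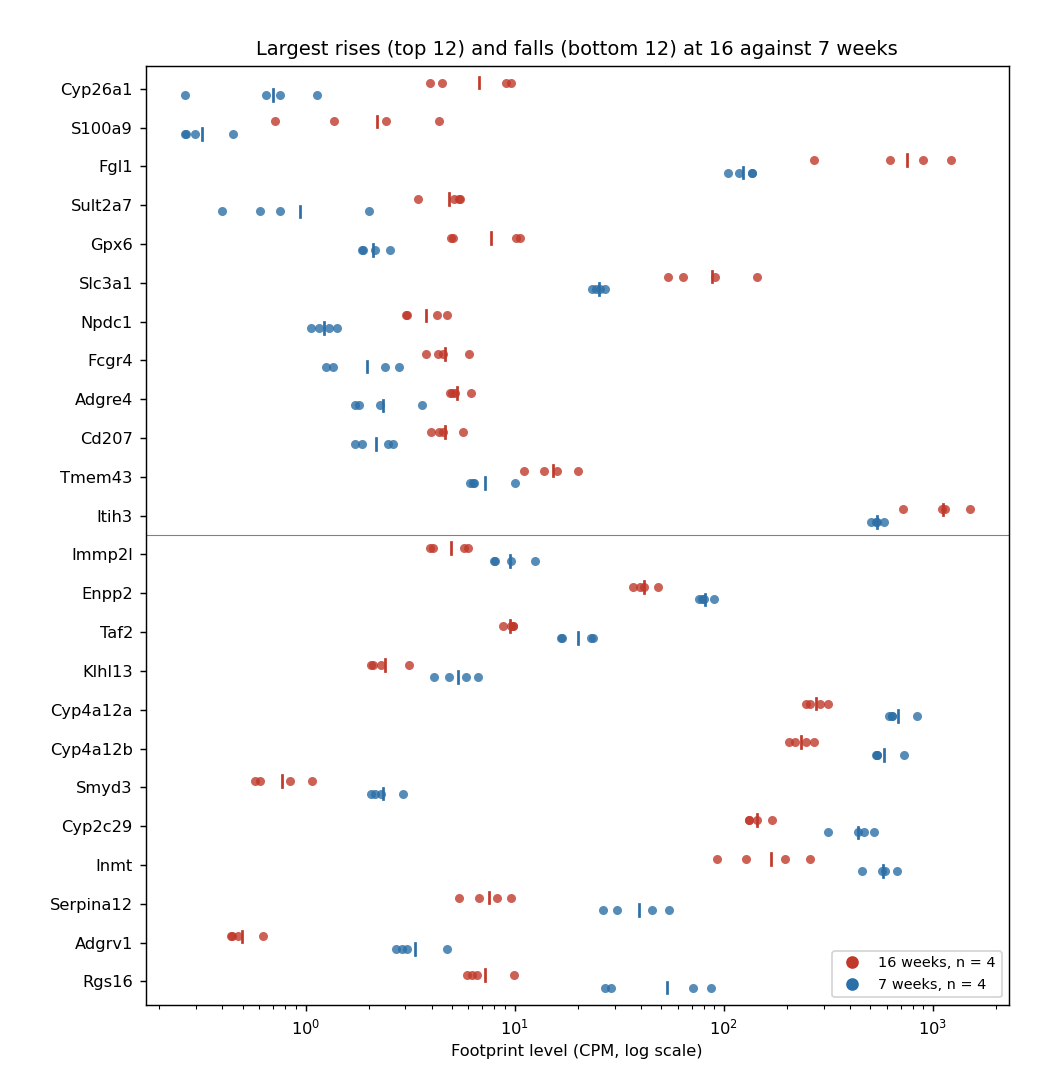
Level in each library (horizontal, CPM, log scale) of the 12 largest rises and 12 largest falls among changed genes that averaged 2 CPM or more at the age where they were higher. Red points are 16-week livers, blue points 7-week livers (n = 4 each), and ticks are group means; the 2 colours do not overlap in any of the 24 genes.

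Slc3a1, Npr2, Cdhr5 and Tmem43, membrane proteins of different functions, rose. Slc3a1, the heavy chain of the cystine and dibasic amino acid carrier, was at 90.9, 54.0, 63.5 and 144 CPM in the 16-week livers, against 27.0, 23.5, 25.7 and 24.5 CPM in the 7-week livers. The 7-week livers lay within 4 CPM of each other, while the 16-week livers spread from 54.0 to 144 CPM (log2 change 1.81 ± 0.30, adjusted p = 0.00469). Of 30 tested amino acid and organic solute carriers it was the one change; 6 passed upward and 4 downward in the fit of 8 libraries. The citrate carrier Slc13a5 had a log2 change of 1.47 (adjusted p = 0.0752) and the dicarboxylate carrier Slc13a3 one of 1.27 (adjusted p = 0.129). Npr2, the receptor of C-type natriuretic peptide, was at 24.6, 29.8, 25.9 and 24.6 CPM in the 16-week livers, against 14.8, 13.5, 11.4 and 11.8 CPM in the 7-week livers, a tight shift (log2 change 1.03 ± 0.21, adjusted p = 0.0184). Cdhr5, a cadherin of brush borders, was at 70.5, 59.4, 77.0 and 78.9 CPM in the 16-week livers, against 45.6, 47.9, 49.2 and 46.5 CPM in the 7-week livers (log2 change 0.60 ± 0.13, adjusted p = 0.0357). Tmem43, a protein of the inner nuclear membrane, was at 20.0, 11.1, 15.9 and 13.8 CPM in the 16-week livers, against 6.12, 6.42, 6.28 and 9.97 CPM in the 7-week livers, with 7-week library 4 nearest to the older livers (log2 change 1.08 ± 0.22, adjusted p = 0.0191). Tmem43 passed in 4 of the 8 fits that left out 1 library, Npr2 in 4 and Cdhr5 in 1, with adjusted p up to 0.098 for Tmem43 and Npr2 without 7-week library 3, and 0.151 for Cdhr5 without 16-week library 4.

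Several genes of inflammation and of resident immune cells rose. In whole liver, more cells of a type and more RNA per cell cannot be told apart. Of 24 tested macrophage markers 4 rose and none fell, 15 passed upward in the fit of 8 libraries, 23 of 24 had a positive log2 change, and the median was 0.68. Their summed level was 955, 740, 858 and 939 CPM in the 16-week livers, against 488, 575, 501 and 728 CPM in the 7-week livers. The 18 hepatocyte markers, none of which passed, summed to 146000 to 201000 CPM at 16 weeks and 161000 to 214000 CPM at 7 weeks. The part of cell number in the macrophage difference was not tested.

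The 4 macrophage genes that rose were Ctss, Cd5l, C1qa and Adgre4. Ctss, the lysosomal protease cathepsin S, was at 36.4, 26.0, 31.1 and 37.3 CPM in the 16-week livers, against 17.7, 15.4, 17.7 and 19.5 CPM in the 7-week livers (log2 change 0.90 ± 0.17, adjusted p = 0.0144). C1qa, a chain of the first complement component made by macrophages, was at 51.3, 42.4, 48.4 and 52.0 CPM in the 16-week livers, against 25.3, 29.3, 26.8 and 36.4 CPM in the 7-week livers (log2 change 0.72 ± 0.16, adjusted p = 0.0302). Cd5l, a secreted protein of tissue macrophages, was at 94.9, 57.6, 85.0 and 92.6 CPM in the 16-week livers, against 34.0, 48.4, 37.8 and 61.7 CPM in the 7-week livers, and here 7-week library 4 lay above 16-week library 2 (log2 change 0.86 ± 0.18, adjusted p = 0.0247). Adgre4, a receptor related to F4/80, was at 5.01, 4.90, 5.20 and 6.16 CPM in the 16-week livers, against 1.81, 3.59, 1.72 and 2.27 CPM in the 7-week livers (log2 change 1.18 ± 0.26, adjusted p = 0.0379). Of the 8 fits that left out 1 library, Ctss passed in 3, Cd5l and C1qa in 2 each and Adgre4 in 1. The highest adjusted p were 0.125 for Cd5l, 0.134 for C1qa and 0.162 for Adgre4, all without 7-week library 1. For Ctss it was 0.0768, without 7-week library 2. Outside the list, the IgG receptor Fcgr4 was at 6.03, 3.74, 4.54 and 4.29 CPM in the 16-week livers, against 2.81, 1.35, 1.26 and 2.41 CPM in the 7-week livers (log2 change 1.23 ± 0.25, adjusted p = 0.0202), and Cd207, langerin, at 5.64, 4.53, 4.32 and 3.97 CPM in the 16-week livers, against 1.86, 2.47, 1.72 and 2.61 CPM in the 7-week livers (log2 change 1.09 ± 0.24, adjusted p = 0.0335). Without 7-week library 3 the adjusted p was 0.113 for Fcgr4, which passed in 4 of the 8 fits that left out 1 library, and 0.144 for Cd207, which passed in 1. Ctsc, the protease that activates granule enzymes of myeloid cells, also rose (log2 change 0.75 ± 0.15, adjusted p = 0.0144).

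Tmem176a and Tmem176b, a pair of membrane proteins of myeloid and other cells, rose together. Tmem176b was at 412, 338, 345 and 443 CPM in the 16-week livers, against 196, 199.6, 208 and 209.5 CPM in the 7-week livers (log2 change 0.92 ± 0.14, adjusted p = 0.00164) and passed in every fit that left out 1 library. Its neighbour Tmem176a was at 275, 220.2, 248 and 282 CPM in the 16-week livers, against 141, 150.1, 154 and 168 CPM in the 7-week livers (log2 change 0.74 ± 0.17, adjusted p = 0.0432) and passed in 1 of these 8 fits, with an adjusted p of up to 0.162 without 7-week library 1. The gene Tmem176a (chr6:48841483-48845364) lies inside the span of Tmem176b (chr6:48833811-48845948) on the opposite strand. The shared capitals of the printed window concern 1 start of Tmem176b, chosen for the largest overlap. The span of Tmem176b runs past that start to base 48845948. Whether the counting used strand is not given in the sources used here, so reads of the pair cannot be told apart.

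Of the markers of other blood cells, S100a9 and Ighg1 rose. S100a9, a subunit of neutrophil calprotectin, was at 2.41, 1.37, 0.711 and 4.33 CPM in the 16-week livers, against 0.452, 0.294, 0.265 and 0.268 CPM in the 7-week livers (log2 change 2.75 ± 0.54, adjusted p = 0.0171); without 16-week library 4 its adjusted p was 0.112. S100a9 passed in 3 of the 8 fits that left out 1 library. Its partner S100a8 had a log2 change of 2.18 (adjusted p = 0.19). Of 4 tested neutrophil markers S100a9 alone passed, 3 had positive changes and 1 a negative one, of -0.89 on the log2 scale. Their sum was 223, 57, 133 and 548 CPM in the 16-week livers, against 20.1, 17.7, 24.3 and 22.5 CPM in the 7-week livers. Most of that sum was Lcn2, which hepatocytes also make, while the other members were each below 5 CPM. Of 7 tested B and plasma cell markers, Ighg1, the constant region of IgG1, rose, and all 7 had positive changes with a median of 2.05. Ighg1 had 15, 14, 1 and 59 counts in the 16-week libraries, against 0, 2, 0 and 0 in the 7-week libraries, a ratio of 39.5 with a counting interval of 10.6 to 331 (95%, counting error only). Library 4 held most of these counts, and without it the adjusted p was 0.233. Ighg1 passed in 1 of the 8 fits that left out 1 library. Igkc, the kappa light chain, was at 4.44, 5.54, 2.35 and 8.62 CPM in the 16-week livers, against 1.66, 1.41, 0.728 and 0.669 CPM in the 7-week livers (log2 change 2.20 ± 0.53, adjusted p = 0.0635) and passed in the fit of 8 libraries (adjusted p = 0.00991). None of the 6 tested erythroid markers passed, and they summed to 756, 1230, 621 and 1770 CPM in the 16-week livers, against 1230, 896, 1090 and 614 CPM in the 7-week livers, overlapping ranges. Of the T and NK cell markers Cd4 alone had enough counts to be tested, and it did not pass, with a log2 change of -0.52.

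Acute-phase genes, which hepatocytes make under cytokine signals, were spread widely between individual 16-week livers. Of 36 tested, Fgl1 and Itih3 rose, none fell, 3 passed upward and 3 downward in the fit of 8 libraries, and the median log2 change was 0.63. Fgl1, a secreted fibrinogen-like protein, was at 891, 271, 619.5 and 1213 CPM in the 16-week livers, against 136, 137, 105 and 118 CPM in the 7-week livers (log2 change 2.59 ± 0.53, adjusted p = 0.0302). The 7-week livers lay close together, the 16-week livers were spread, and all 4 were above the 7-week range. Itih3, a heavy chain of the inter-alpha inhibitor, was at 1098, 722, 1140 and 1495 CPM in the 16-week livers, against 534, 503, 585 and 538 CPM in the 7-week livers (log2 change 1.04 ± 0.22, adjusted p = 0.0212). Fgl1 passed in 2 of the 8 fits that left out 1 library and Itih3 in 1; the highest adjusted p were 0.118 for Fgl1 without 7-week library 3 and 0.116 for Itih3 without 16-week library 4.

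The order of the 16-week livers recurred in acute-phase genes that did not pass. Lcn2, lipocalin 2, was at 219, 53.4, 129.9 and 542 CPM in the 16-week livers, against 17.9, 15.1, 21.8 and 19.3 CPM in the 7-week livers (log2 change 3.67 ± 1.08, adjusted p = 0.186). Orm2, an alpha-1 acid glycoprotein, was at 415, 174, 287 and 1180 CPM in the 16-week livers, against 146, 143, 158 and 151 CPM in the 7-week livers (log2 change 1.78 ± 0.43, adjusted p = 0.0664). Saa1, serum amyloid A, was at 994, 89.9, 119 and 2459 CPM in the 16-week livers, against 133, 143, 176 and 117 CPM in the 7-week livers, where 16-week libraries 2 and 3 lay within or below the 7-week range (log2 change 2.69 ± 1.25, adjusted p = 0.504). In Fgl1, Lcn2, Orm2 and Saa1 alike, 16-week library 4 was the highest and library 2 the lowest. Saa1 and the Orm genes have near-identical copies between which reads may be split. Mbl2, the mannose-binding lectin that starts a complement pathway, rose (log2 change 0.93 ± 0.19, adjusted p = 0.0202) at 977, 595, 659 and 737 CPM in the 16-week livers, against 456, 384, 344 and 371 CPM in the 7-week livers, as the one change among 25 tested complement genes, a list that does not hold C1qa. Mbl2 passed in 3 of the 8 fits that left out 1 library. Hamp, the iron hormone hepcidin, was at 1549, 1598, 1614 and 1779 CPM in the 16-week livers, against 1249, 978, 664 and 1398 CPM in the 7-week livers and did not pass (log2 change 0.61 ± 0.23, adjusted p = 0.344).

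Of 26 tested genes of cholesterol synthesis and SREBP2 action, 1 rose and none fell, but 14 passed upward in the fit of 8 libraries and 25 of 26 had a positive change. The median log2 change was 0.63, beside 0.01 over all genes tested. Their sum was 2460, 2660, 2530 and 2370 CPM in the 16-week livers, against 1570, 1650, 1550 and 2080 CPM in the 7-week livers, without overlap. Srebf2, the regulator of the pathway, was at 33.8, 42.6, 40.9 and 42.7 CPM in the 16-week livers, against 19.5, 22.1, 22.8 and 30.2 CPM in the 7-week livers, and the squalene epoxidase Sqle at 56.9, 47.0, 47.9 and 39.3 CPM in the 16-week livers, against 7.72, 11.4, 8.66 and 20.5 CPM in the 7-week livers. Neither passed in the fit of 24 libraries (adjusted p = 0.0587 for Srebf2 and 0.192 for Sqle), and both passed in the fit of 8 (0.00628 and 0.0104). Cyp51, the lanosterol demethylase, followed the same course, with a log2 change of 0.99 and adjusted p = 0.154 in the fit of 24 and 0.0114 in the fit of 8.

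**Figure D3:**
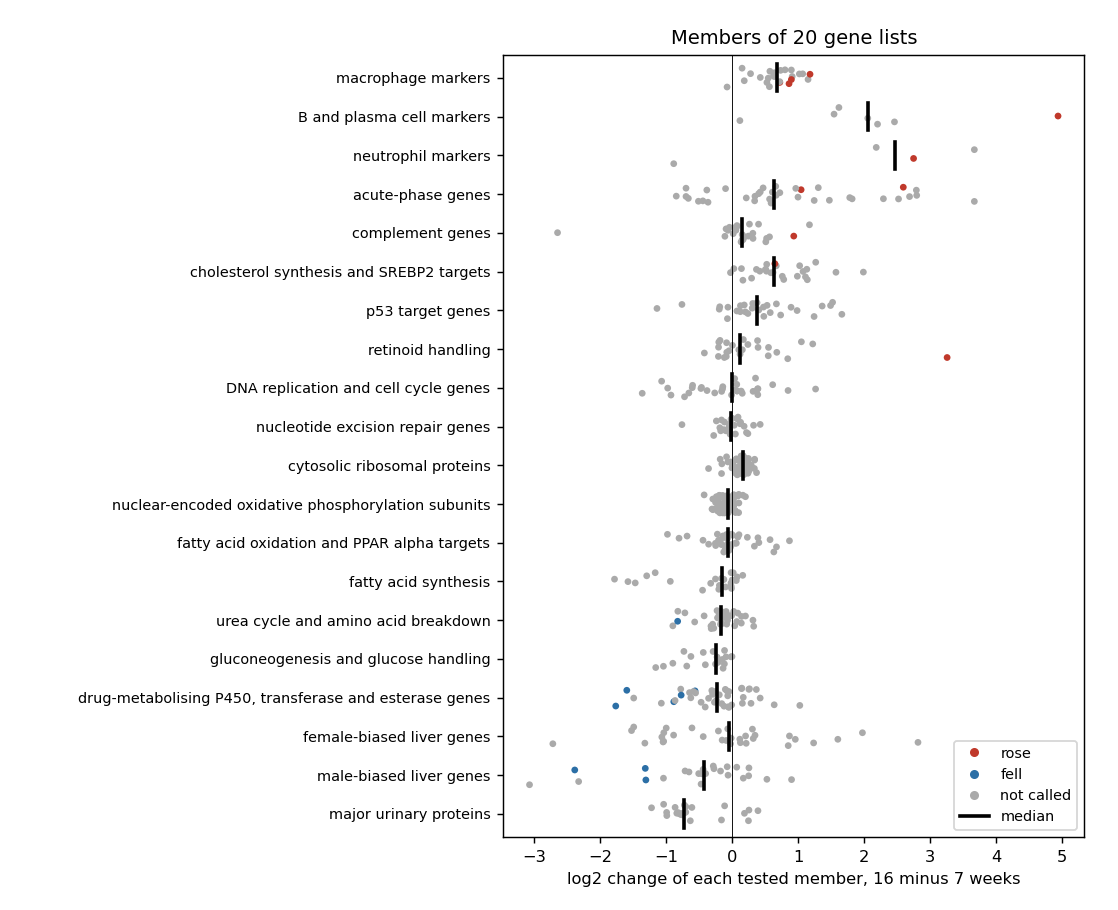
Log2 change of each tested member (points) of 20 gene lists, 16 minus 7 weeks, with the list median as a black bar. Red and blue points rose and fell; macrophage markers, acute-phase genes and sterol synthesis have medians of 0.68, 0.63 and 0.63, and major urinary proteins one of -0.73.

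Some enzymes and secreted proteins typical of the male liver fell. Of 24 tested male-biased genes 3 fell and none rose. In the fit of 8 libraries 8 passed downward and 1 upward, and the median log2 change was -0.42. Of the 24, 18 had negative and 6 positive changes. Their sums overlapped, at 17000 to 23000 CPM at 16 weeks and 19500 to 23100 CPM at 7 weeks. Cyp4a12a, an omega-hydroxylase of fatty acids that androgens and growth hormone maintain, was at 287, 257, 246 and 313 CPM in the 16-week livers, against 637, 619, 838 and 638 CPM in the 7-week livers (log2 change -1.31 ± 0.16, adjusted p = 8.26e-05). Its copy Cyp4a12b was at 246, 218, 205 and 269 CPM in the 16-week livers, against 542, 532, 723 and 539 CPM in the 7-week livers (log2 change -1.32 ± 0.17, adjusted p = 8.26e-05). The 2 genes lie 78.8 kb apart on chromosome 4 and share most of their sequence, so they are read here as 1 observation. Serpina12, the adipokine vaspin, was at 9.64, 5.43, 6.73 and 8.22 CPM in the 16-week livers, against 30.9, 26.4, 45.2 and 54.5 CPM in the 7-week livers (log2 change -2.39 ± 0.35, adjusted p = 0.00166). All 16-week livers were below 10 CPM and all 7-week livers above 26 CPM. All 3 calls held whichever library was left out.

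The major urinary proteins, small pheromone carriers made in bulk by the male liver, had a median log2 change of -0.73 over 22 tested genes. None changed in the fit of 24 libraries, and 16 passed downward in the fit of 8. They took 113000, 68600, 76200 and 82800 CPM in the 16-week livers, against 134000, 127000, 125000 and 99500 CPM in the 7-week livers, so the ranges overlapped through 16-week library 1. Mup13, Mup14, Mup8 and Mup15 had the smallest adjusted p, 0.547 to 0.693 in the fit of 24 and 0.000995 to 0.037 in the fit of 8. Mup15 was at 1556, 939, 1048 and 1168 CPM in the 16-week livers, against 2392, 2314, 2606 and 2072 CPM in the 7-week livers. Mup20, or darcin, was at 12720, 8564, 10020 and 11130 CPM in the 16-week livers, against 8034, 9045, 9896 and 8635 CPM in the 7-week livers and did not pass (log2 change 0.25 ± 0.35, adjusted p = 0.895). Reads of this family are shared between copies. Of 32 tested female-biased genes none changed, 5 passed downward in the fit of 8 and the median was -0.05. Cyp3a41b, Cyp3a44 and Cyp3a41a led them with log2 changes of -1.04, -1.07 and -1.04 and adjusted p = 0.0534, 0.0564 and 0.0567.

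The growth hormone and IGF-1 axis gave no call among 18 tested genes in the fit of 24 libraries. Of these, 7 had positive and 11 negative log2 changes, from -2.37 to 2.60, with a median of -0.25. At an unadjusted p under 0.05, 3 of the 18 were higher and 5 lower at 16 weeks, beside 9.57% of all genes tested in either direction. The sum of all 18 was 9340 to 15100 CPM at 16 weeks and 15700 to 17000 CPM at 7 weeks, without overlap. Ghr and Igf1, given next, are a small part of that sum, so it mostly reflects other, more abundant members. The receptor Ghr was at 109, 109.8, 128 and 124 CPM in the 16-week livers, against 182, 173, 160.4 and 169 CPM in the 7-week livers, with no overlap; it missed the threshold in the fit of 24 libraries (adjusted p = 0.186) and passed in the fit of 8 (0.00628). Igf1, the hormone that growth hormone induces in liver, was at 263, 224, 248 and 263 CPM in the 16-week livers, against 259, 283, 288 and 302 CPM in the 7-week livers (log2 change -0.18 ± 0.15, adjusted p = 0.787). The fetal gene Afp was at 7.87, 7.22, 9.14 and 4.82 CPM in the 16-week livers, against 7.47, 10.7, 9.06 and 17.3 CPM in the 7-week livers (log2 change -0.62 ± 0.36, adjusted p = 0.616), and Igf2 was below 1 CPM in each of the 8 libraries. None of the 11 tested fetal and juvenile genes changed.

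Drug-metabolising enzymes gave the most calls of any list by number but not by share, since 4 of 24 tested macrophage markers were called. Of 43 tested drug-metabolising genes 5 fell and none rose. In the fit of 8 libraries 13 passed downward and 3 upward, and the median log2 change was -0.24. Cyp2c29, a P450 of fatty acid epoxidation, was at 132, 169.5, 144 and 132 CPM in the 16-week livers, against 522, 440.1, 469 and 315 CPM in the 7-week livers (log2 change -1.60 ± 0.21, adjusted p = 0.00021). Inmt, the indolethylamine methyltransferase, was at 128, 258, 196 and 93.0 CPM in the 16-week livers, against 589, 569.8, 676 and 459 CPM in the 7-week livers (log2 change -1.77 ± 0.28, adjusted p = 0.00257). Neither gene's ranges overlapped between the ages, and both calls held in each fit that left out 1 library. Ces2a, a carboxylesterase, was at 123, 116, 117 and 86.6 CPM in the 16-week livers, against 184, 209, 207 and 157 CPM in the 7-week livers (log2 change -0.77 ± 0.14, adjusted p = 0.00503), and likewise kept its call.

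The dioxin-inducible pair Cyp1a1 and Cyp1a2 fell together. Cyp1a2, which clears caffeine, was at 447, 417, 502 and 337 CPM in the 16-week livers, against 733, 929.8, 822 and 662 CPM in the 7-week livers (log2 change -0.89 ± 0.19, adjusted p = 0.0237), and Cyp1a1 at 52.4, 52.5, 70.1 and 37.9 CPM in the 16-week livers, against 95.1, 117, 96.5 and 83.5 CPM in the 7-week livers (log2 change -0.88 ± 0.20, adjusted p = 0.0385). The genes are neighbours, 4.27 kb apart on chromosome 9, and their ranges did not overlap between ages. In both, 16-week library 4 was the lowest, and without it the adjusted p were 0.117 and 0.177. Cyp1a1 and Cyp1a2 each passed in 2 of the 8 fits that left out 1 library. Cyp3a25 and Cyp3a59, 69.6 kb apart on chromosome 5, had near-equal falls with small spread. Cyp3a25 was at 238, 228, 219 and 236 CPM in the 16-week livers, against 368, 326, 334 and 332 CPM in the 7-week livers (log2 change -0.56 ± 0.13, adjusted p = 0.0357) and Cyp3a59 had a log2 change of -0.56 ± 0.12 (adjusted p = 0.0277). Neither passed in any fit that left out 1 library, with adjusted p up to 0.141 and 0.125, both without 7-week library 1. The Cyp2c and Cyp3a families have close copies, so single members are uncertain.

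Other enzymes of conjugation and breakdown moved in both directions. Sult2a7, a sulfotransferase of the steroid and bile acid family, was at 5.39, 5.48, 5.14 and 3.44 CPM in the 16-week livers, against 0.752, 2.00, 0.397 and 0.602 CPM in the 7-week livers (log2 change 2.35 ± 0.48, adjusted p = 0.0202), and without 7-week library 1 its adjusted p was 0.109. Acnat2, an acyltransferase that joins fatty acids to amino acids in peroxisomes, was at 70.7, 65.5, 51.8 and 83.9 CPM in the 16-week livers, against 36.7, 35.7, 32.1 and 35.1 CPM in the 7-week livers (log2 change 0.96 ± 0.22, adjusted p = 0.0469). Pdp1, a phosphatase that activates pyruvate dehydrogenase, had 140 counts over the 16-week libraries, against 47 over the 7-week libraries (log2 change 1.43 ± 0.33, adjusted p = 0.046). Hal, the first enzyme of histidine breakdown, was at 92.9, 146, 144 and 149.8 CPM in the 16-week livers, against 235, 227, 261 and 222 CPM in the 7-week livers (log2 change -0.83 ± 0.19, adjusted p = 0.0379). Pcca, a subunit of propionyl-CoA carboxylase, was at 52.6, 57.1, 48.2 and 53.5 CPM in the 16-week livers, against 88.6, 75.1, 71.2 and 81.0 CPM in the 7-week livers (log2 change -0.58 ± 0.12, adjusted p = 0.0239). Enpp2, autotaxin, which makes lysophosphatidic acid, was at 39.5, 36.9, 48.1 and 41.3 CPM in the 16-week livers, against 78.3, 89.5, 80.5 and 76.0 CPM in the 7-week livers (log2 change -0.97 ± 0.20, adjusted p = 0.02). Each of these 5 after Sult2a7 lost its call in at least 6 of the 8 fits that left out 1 library. Sult2a7 passed in 3 of these 8 fits.

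The lists of the main fuel pathways gave no call in the fit of 24 libraries apart from Hal, although the summed levels of 2 lists did not overlap between ages. All 20 tested genes of gluconeogenesis and glucose handling had negative changes, with a median of -0.24. None passed, and 4 passed downward in the fit of 8. Their sum was 11700 to 14300 CPM at 16 weeks and 15200 to 19000 CPM at 7 weeks, without overlap. Pfkfb3, an activator of glycolysis, had a log2 change of -1.16 (adjusted p = 0.0545), Foxo1, a transcription factor of fasting, one of -0.73 (0.262), and Pklr, liver pyruvate kinase, one of -0.63 (0.357). Of 24 tested genes of fatty acid synthesis none passed, 3 passed downward in the fit of 8, and the median was -0.15. They summed to 4540 to 5160 CPM at 16 weeks and 5520 to 9290 CPM at 7 weeks, again without overlap. Scd1, the stearoyl-CoA desaturase, was at 989.7, 747, 282 and 833 CPM in the 16-week livers, against 2152, 1483, 870.2 and 2500 CPM in the 7-week livers (log2 change -1.30 ± 0.40, adjusted p = 0.219). Of 37 tested genes of fatty acid oxidation none passed, and Acaa1b, a peroxisomal thiolase, led with a log2 change of -0.81 (adjusted p = 0.0546). The sums of this list overlapped, at 13900 to 17600 CPM at 16 weeks and 16900 to 19700 CPM at 7 weeks. Fasn, Cyp7a1 and Elovl3 had log2 changes of 0.06, -0.41 and 0.25 with adjusted p = 0.99, 0.898 and 0.938. Of 34 tested genes of the urea cycle and amino acid breakdown, Hal fell. Their sums overlapped, at 31100 to 36600 CPM at 16 weeks and 35200 to 44200 CPM at 7 weeks. Pdp1 and Pcca, given above as changed, are not on these lists.

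Rgs16, a brake on G-protein signals that follows the feeding clock in liver, had the largest fall on the log2 scale. It was at 9.96, 5.91, 6.57 and 6.25 CPM in the 16-week livers, against 87.1, 26.9, 71.0 and 28.8 CPM in the 7-week livers (log2 change -2.90 ± 0.51, adjusted p = 0.0105). The 16-week livers lay close together, and 7-week libraries 1 and 3 were well above libraries 2 and 4. Without 16-week library 4 the adjusted p was 0.0546. Rgs16 was the one change among 21 tested clock and clock-output genes, whose median log2 change was -0.29 and of which 3 passed downward in the fit of 8. Ciart, a repressor of the clock, was at 1.71, 2.00, 3.23 and 1.25 CPM in the 16-week livers, against 5.22, 7.42, 4.10 and 5.49 CPM in the 7-week livers (log2 change -1.44 ± 0.51, adjusted p = 0.308). Dbp, an output factor, and Per3 had log2 changes of -0.88 and -1.01 with adjusted p = 0.39 and 0.392. The hour of collection is not given in the sources used here, and its part was not tested.

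**Figure D4:**
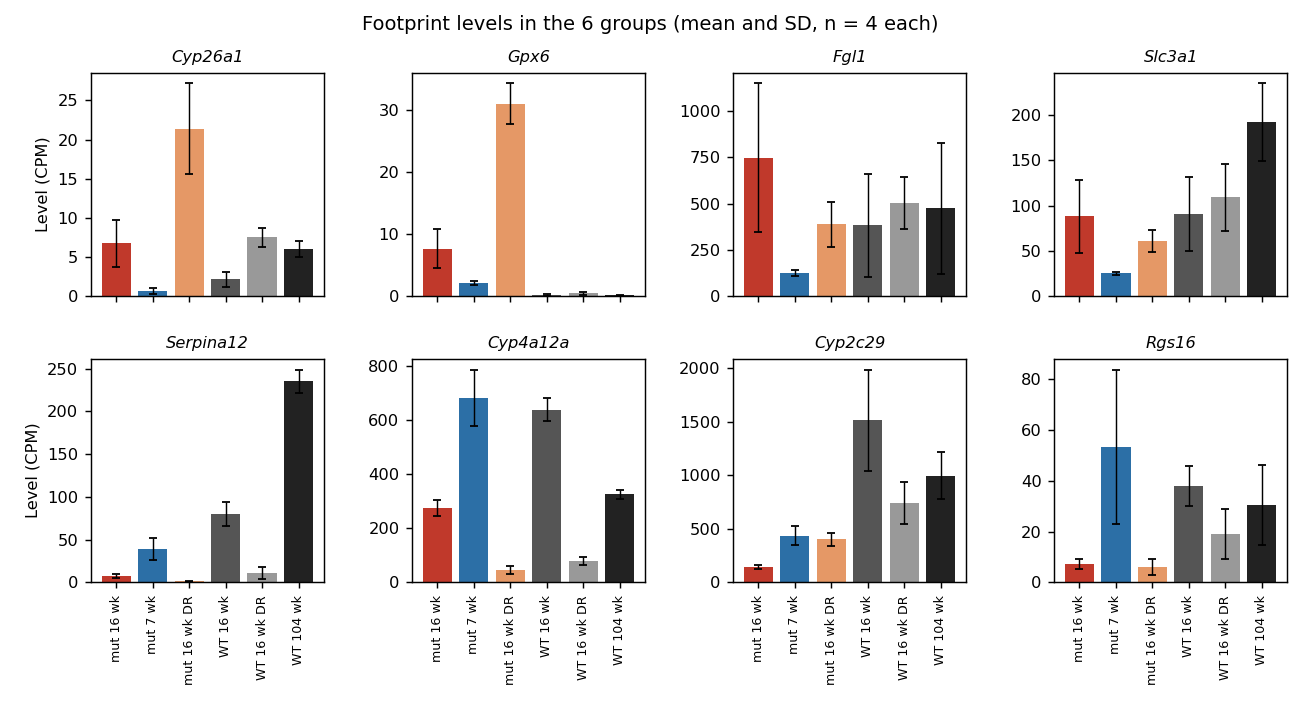
Mean level and SD (CPM, bars from 0, n = 4 each) of 8 changed genes in mutants (mut) and wild types (WT) at the ages given in weeks (wk), with restricted groups marked DR. Cyp26a1 and Gpx6 are highest in restricted mutants, at 21.4 and 31.0 CPM, and Serpina12 is highest in wild types of 104 weeks.

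The levels of wild types of 16 weeks stood in different places relative to the 2 ages; the comparison with them shares the 16-week mutant libraries. Cyp26a1 averaged 6.76 ± 2.97 CPM in 16-week mutants, 0.701 ± 0.359 CPM in 7-week mutants and 2.15 ± 0.988 CPM in wild types of 16 weeks. Gpx6 averaged 7.68 ± 3.08 CPM in 16-week mutants, 2.11 ± 0.320 CPM in 7-week mutants and 0.199 ± 0.182 CPM in wild types of 16 weeks, so even the 7-week mutants were above the wild types. Serpina12 averaged 7.50 ± 1.82 CPM in 16-week mutants, 39.3 ± 12.9 CPM in 7-week mutants and 79.7 ± 13.8 CPM in wild types of 16 weeks, and Cyp2c29 144 ± 17.8 CPM in 16-week mutants, 437 ± 87.7 CPM in 7-week mutants and 1510 ± 475 CPM in wild types of 16 weeks. Slc3a1 averaged 88.0 ± 40.3 CPM in 16-week mutants, 25.2 ± 1.53 CPM in 7-week mutants and 90.5 ± 40.8 CPM in wild types of 16 weeks. Cyp1a2 averaged 426 ± 68.7 CPM in 16-week mutants, 787 ± 116 CPM in 7-week mutants and 373 ± 62.5 CPM in wild types of 16 weeks, highest in the 7-week mutants. In the same fit, 1310 of the 12211 genes differed between fed mutants and fed wild types of 16 weeks (10.7%). Serpina12, Inmt and Cyp2c29 had log2 changes, mutant minus wild type, of -3.41, -1.74 and -3.39 (adjusted p = 2.54e-06, 0.0002 and 5.87e-10), and Gpx6, Npdc1 and Tmem176b changes of 5.07, 2.45 and 1.19 (adjusted p = 3.61e-09, 1.17e-05 and 3.26e-06). Fgl1, Slc3a1 and Cyp1a2 had changes of 0.97, -0.04 and 0.19, with adjusted p = 0.247, 0.959 and 0.583.

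The genes that fell had a longer median span on the genome than those that rose. The falls had a median span of 33.8 kb and the rises one of 12.0 kb, beside 23.7 kb over all genes tested. Of the 23 falls 8 spanned more than 100 kb (34.8%), and 2 of the 30 rises did (6.67%), against 1544 of the 12211 tested (12.6%). Among 260 tested genes over 300 kb, 5 fell (1.92%), none rose and the median log2 change was -0.27. With the tested genes in 5 equal classes by span, 78 passed downward and 24 upward in the fit of 8 libraries in the longest class, and 40 passed downward and 46 upward in the shortest. In each library the average log2 level of the genes with the shortest spans was taken from that of the genes with the longest. This gap was -0.63 ± 0.11 at 16 weeks and -0.53 ± 0.06 at 7 weeks (SD, n = 4 each). That difference of -0.10 did not pass an exact 2-sided permutation test over 70 assignments (p = 0.143, smallest possible 0.0286).

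The long genes that fell are of mixed function. Adgrv1, a giant adhesion receptor of hair cells and retina with a span of 538 kb (chr13:81095068-81633391), was at 0.444, 0.474, 0.438 and 0.625 CPM in the 16-week livers, against 2.71, 2.88, 3.04 and 4.75 CPM in the 7-week livers (log2 change -2.72 ± 0.43, adjusted p = 0.00166). Smyd3, a lysine methyltransferase of 566 kb, was at 0.571, 0.844, 0.602 and 1.07 CPM in the 16-week livers, against 2.91, 2.30, 2.05 and 2.14 CPM in the 7-week livers (log2 change -1.58 ± 0.33, adjusted p = 0.0239). Immp2l, a peptidase of the inner mitochondrial membrane of 932 kb, was at 5.96, 3.95, 5.75 and 4.06 CPM in the 16-week livers, against 12.4, 8.01, 9.59 and 7.96 CPM in the 7-week livers (log2 change -0.95 ± 0.17, adjusted p = 0.0072). Vps13b, a lipid transfer protein of the Golgi, was at 15.5, 19.2, 18.5 and 23.7 CPM in the 16-week livers, against 30.6, 33.3, 29.5 and 30.0 CPM in the 7-week livers (log2 change -0.68 ± 0.15, adjusted p = 0.0347). Pcca, Enpp2, Klhl13 and Phf8 complete the 8. Klhl13, a ubiquitin ligase adaptor, and the histone demethylase Phf8 had log2 changes of -1.17 and -0.90 (adjusted p = 0.0379 and 0.0277). Of these 8, Adgrv1 kept its call in each of the 8 fits that left out 1 library. Immp2l passed in 6, Smyd3, Enpp2 and Phf8 in 2, Vps13b and Pcca in 1 and Klhl13 in none. The highest adjusted p were 0.057 for Immp2l, 0.116 for Smyd3 and 0.127 for Pcca without 7-week library 1, 0.153 for Klhl13 without 7-week library 2, 0.0853 for Enpp2 and 0.144 for Vps13b without 16-week library 1, and 0.142 for Phf8 without 16-week library 4. The share of long genes among the falls thus rests in large part on calls that leaving out 1 library ends. Falls with shorter spans included Taf2, a subunit of the general transcription factor TFIID, at 9.83, 9.86, 9.63 and 8.80 CPM in the 16-week livers, against 23.0, 23.6, 16.8 and 16.6 CPM in the 7-week livers (log2 change -1.07 ± 0.18, adjusted p = 0.00294). Narf, a nuclear protein that binds prelamin A, fell as well (log2 change -0.93 ± 0.17, adjusted p = 0.00649).

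**Figure D5:**
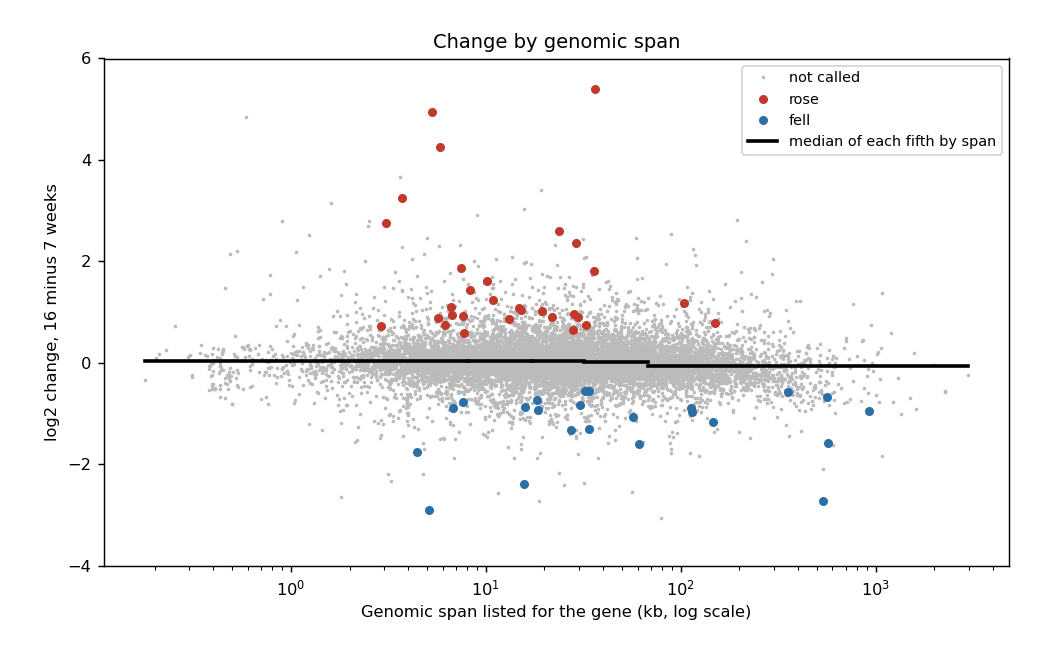
Log2 change, 16 minus 7 weeks (vertical), against the genomic span of each tested gene (horizontal, kb, log scale). Red and blue points rose and fell, black bars are the median of each of 5 equal span classes, and the bar of the longest class is the one below 0, at -0.07.

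Igdcc4, Irx1 and Ighg1 had almost no footprints at 7 weeks. Igdcc4, a receptor-like protein of the immunoglobulin superfamily, had 16, 7, 20 and 26 counts in the 16-week libraries, against 0, 0, 0 and 1 in the 7-week libraries. The ratio was 61.3 with a counting interval of 10.6 to 2460. Irx1, a homeobox factor, had 25, 23, 13 and 33 counts in the 16-week libraries, against 2, 1, 0 and 1 in the 7-week libraries, a ratio of 20.9 (interval 7.89 to 78.2). Igdcc4 averaged 0.91 CPM in 16-week mutants, 0.703 CPM in restricted mutants and 0.0253 CPM in fed wild types of 16 weeks, while Irx1 averaged 1.25, 0.245 and 0.83 CPM in these groups. Npdc1, a membrane protein first described in neural precursors, was at 3.04, 3.00, 4.27 and 4.73 CPM in the 16-week livers, against 1.15, 1.29, 1.06 and 1.41 CPM in the 7-week livers (log2 change 1.61 ± 0.31, adjusted p = 0.0129). Adam23, an adhesion protein without protease activity, and Wfdc21, a small secreted WAP-domain protein, rose too (log2 change 0.79 ± 0.17, adjusted p = 0.0261 for Adam23 and log2 change 0.89 ± 0.20, adjusted p = 0.0401 for Wfdc21).

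Damage and stress lists gave no call in the fit of 24 libraries. Of 29 tested p53 targets none passed, 3 passed upward in the fit of 8 libraries, and the median log2 change was 0.38. Ccng1, cyclin G1, was at 24, 10.9, 12.0 and 12.2 CPM in the 16-week livers, against 8.08, 6.06, 6.08 and 4.62 CPM in the 7-week livers (log2 change 1.24 ± 0.29, adjusted p = 0.0515). Phlda3 and Eda2r, both p53 targets of growth restraint or death signalling, had log2 changes of 1.49 and 1.52 (adjusted p = 0.299 and 0.388), with 16-week library 1 the highest in each. The cell-cycle inhibitor Cdkn1a averaged 53.5 ± 30.3 CPM at 16 weeks and 32.1 ± 8.22 CPM at 7 weeks (SD, n = 4 each) and the stress hormone Gdf15 4.95 ± 2.98 CPM at 16 weeks and 3.37 ± 2.15 CPM at 7 weeks (SD, n = 4 each). Their adjusted p were 0.807 and 0.832, and 16-week library 1 was the highest in both. None of 27 nucleotide excision repair genes, 38 interferon response genes or 31 genes of DNA replication and the cell cycle passed, with medians of -0.02, 0.07 and -0.01. The interferon-induced Usp18 had a log2 change of -0.05 (adjusted p = 0.983). None of 17 tested stellate cell and matrix markers passed, 11 had positive changes, 2 passed upward and 3 downward in the fit of 8, and the median was 0.17. Col3a1, a fibrillar collagen with the smallest adjusted p among them, went against that median, at 14.9, 19.6, 23.4 and 16.7 CPM in the 16-week livers, against 38.3, 35.1, 36.8 and 72.8 CPM in the 7-week livers (log2 change -1.29 ± 0.35, adjusted p = 0.109).

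Counting ribosome P-sites per open reading frame (ORF), the second deposited table, gave 87 changes among 18344 ORFs tested (0.474%), 52 higher and 35 lower at 16 weeks. The table names transcripts and no genes, so its ORFs are not named here.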

How the data were processed

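Per the labels' protocols, lysates of snap-frozen liver were treated with cycloheximide and RNase I, and protected fragments were sequenced after removal of ribosomal RNA. Per the submitters' processing notes the tools included Trimmomatic 0.39, cutadapt 3.4, Bowtie2 2.4.2, STAR 2.7.0f and 2.7.8a, Subread 1.6.4 and featureCounts, with build GRCm38.p6; their roles, the annotation release, the use of strand and the handling of reads with several matches are not given in the sources used. The deposited gene table holds raw read counts and the deposited ORF table raw counts of P-sites, as their whole values show. The test of both tables was edgeR 4.0.16 (R 4.3.3): filterByExpr over 6 groups, TMM scaling, a robust quasi-likelihood fit of 24 libraries with 1 term per group (18 residual degrees of freedom), 2-sided F tests and Benjamini-Hochberg adjustment. A ± after a log2 change is a standard error. Library totals set the counting precision, and intervals of count ratios are exact and cover counting error only. The scripts were tested on simulated counts with known changes. Alternatives were DESeq2 1.42.0, voom in limma 3.58.1, other scalings and filters, the 8 libraries alone, a replicate block and leaving out each library. Same-numbered libraries of the 2 ages deviated with correlations of -0.108 to 0.059, so the numbers do not pair them. Members and lists were chosen with earlier results of these data known. Values per library are given for the 12 largest rises and 12 largest falls that averaged 2 CPM or more at one of the ages, every changed gene may be named except some that are not reported here, up to 4 members by adjusted p per list are named, and a set of marker genes was followed. Among 53 changed genes all had a RefSeq position and 38 a promoter window; sequences are from RefSeq on GRCm38.p6. The length in the gene table is the genomic span.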

Additional observations from a re-analysis of the deposited data

Results flagged for a closer look

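In each age the highest or lowest of 4 libraries was tested for a gap to the others with Dixon's test at its critical value of 0.829. Of 324 groups of values, 19 stood out, where chance gives about 1 in 20; genes with 3 libraries of an age at 0 were not tested in that age. At 16 weeks, library 1 was the highest in Mup13 (1300 CPM, against 627 to 692 in the others), Ccng1 (24 CPM, against 10.9 to 12.2) and Eda2r (7.67 CPM, against 1.53 to 1.74) and the lowest in Hal (92.9 CPM, against 144 to 150). The mean log2 CPM of sinusoidal endothelial markers was 5.26 in that library, against 4.89 to 4.93, and that of antigen presentation genes 5.55, against 5.46 to 5.48. Library 2 of 16 weeks was the lowest in Igdcc4 (0.369 CPM) and the highest in Gpx3 (1.95 CPM). Library 3 of 16 weeks had the highest mean log2 CPM of clock genes, 3.47, against 3.37 to 3.38. Library 4 of 16 weeks was the lowest in Sult2a7 (3.44 CPM), in Ces2a (86.6 CPM) and in the mean log2 CPM of drug-metabolising genes (8.42, against 8.67 to 8.71).

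At 7 weeks, library 1 was the highest in Cdkn1a (44.3 CPM, against 27.4 to 29.0). Library 3 of 7 weeks was the highest in Cyp4a12a (838 CPM, against 619 to 638) and Cyp4a12b (723 CPM, against 532 to 542) and the lowest in Eda2r (0.397 CPM). Library 4 of 7 weeks was the highest in Tmem43 (9.97 CPM) and Col3a1 (72.8 CPM), and the lowest in Ddit4l (0.0669 CPM, against 0.502 to 0.648). The 19 of 324 flagged are near the share that chance gives, and whether anything set these libraries apart was not tested.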

How the results depend on the processing

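The 53 changed genes kept their direction in every setting in which they were tested. The count was 436 (194 higher, 242 lower) in the 8 libraries alone, 167 (95 and 72) with DESeq2's Wald test and 369 (189 and 180) with voom and library quality weights, against 53 (30 and 23). Upper quartile scaling moved the split to 41 higher and 24 lower of 65. The replicate block gave 60 in 24 libraries (47 shared with the 53) and 380 (164 and 216) in the 8 alone. With ribosomal protein level as a covariate in the 8 libraries, chosen after seeing the data, 422 passed (189 and 233). Leaving out 1 library gave 17 to 43 genes, 6 to 28 higher and 10 to 18 lower. The count was 17 without 7-week library 3, 18 without 7-week library 1, 22 without 16-week library 4 and 23 without 16-week library 1 or 7-week library 2. Of the 53, 14 passed in all 8 of these fits and 5 (Wfdc21, Hal, Klhl13, Cyp3a25 and Cyp3a59) in none. ORF counts were 570 in the 8 libraries, 212 with DESeq2 and 14 to 54 with 1 library left out, against 87. The span difference was -0.13 to -0.05 with 1 library left out. Genes near 0 changed sign when 1 library was left out, with ranges of -0.1039 to 0.0621 for Alb, -0.0867 to 0.3533 for Fasn, -0.3066 to 0.0903 for Usp18 and -0.2216 to 0.3894 for Gpx8 on the log2 scale. The cause of these shifts was not tested. Depth limits the genes with few counts at 7 weeks, such as Igdcc4, Irx1 and Ighg1, whose ratios have wide counting intervals.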
